A study of Mus musculus with 6 samples.

Results

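The mitochondrial and respiratory genes of the lateral ventricular choroid plexus were compared between embryonic day 15 (E15) and the adult mouse. The choroid plexus is the epithelial and vascular tissue inside each brain ventricle that secretes the cerebrospinal fluid. Members were the transcript clusters, each the set of exon probe sets that together measure a gene, whose cellular component annotation contains the word stem for mitochondrion. Carriers, transporters and several enzyme families (symbols beginning Slc, Abc, Cyp, Gst, Mgst, Aldh, Mao, Gpx, Prdx, Sod, Txn or Car), Agxt2, Alas2 and clusters with a cell cycle annotation were left out by the same rule. Of 206 clusters with the annotation, 29 were left out by family or symbol and 6 by the cell cycle term, and 171 members remained of the 3956 clusters in the joined tables. Among the members, 161 carry 1 gene symbol and 10 share a cluster with other symbols. The annotation rests on a direct assay for 122 members and on electronic inference alone for 36.

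Healthy Swiss Webster mice of both groups were untreated. The E15 group comprised 3 pools of 30 embryos of mixed sex and the adult group 3 pools of 10 females according to the sample labels, with 1 pool on each of 6 Affymetrix mouse exon arrays. The supplementary description of the study gives other pool sizes, and the adult age was not given in the labels. The plexus was taken whole, so epithelium, stroma, vessels and blood contributed RNA, and less RNA per cell cannot be told apart from fewer cells of a type. Age also cannot be told apart from sex, because the embryos were mixed and the adults female.

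The 3 arrays of each age had been merged by the authors into 1 log2 value per cluster, centred near 0 within the cluster. How strongly a gene was expressed cannot be read from such values, only how the ages differ, and neither an error nor a test could be computed for any of them. All differences below are on the log2 scale and were taken as adult minus E15, so that positive values stand for genes higher in adult. Folds were computed from them and are given without a sign. The tables were selected lists. The gene-level table holds clusters that passed the authors' threshold of 2-fold and their corrected test, and the splicing index table holds clusters whose exons departed from the change of the whole gene. By the supplementary description of the study, the exon-level values also had to be detected above background at both ages and pass a corrected splicing test. Of the 171 members, 39 were in both tables, 39 in the gene-level table alone and 93 in the splicing index table alone. Members that were under 2-fold are thus known from the splicing index table only, and mitochondrial genes outside both tables were not analysed here.

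Mitochondria oxidise pyruvate, fatty acids and amino acids in the citrate cycle and its feeder pathways. The electrons pass through complexes I to IV of the inner membrane, and the proton gradient they build drives ATP synthase. Most of the proteins are encoded in the nucleus and imported. The adult choroid plexus epithelium is known for abundant mitochondria, which supply ATP to the ion pumps behind fluid secretion. Transcription factors known to act on such genes include NRF1, the estrogen-related receptors (ERR) with their coactivator encoded by Ppargc1a, ETS factors such as GABP, and the peroxisome proliferator-activated receptors (PPAR).

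Promoter sequences were read from RefSeq on build GRCm38.p6, in windows from 250 bases before to 50 bases after each annotated start, and 137 of the 171 members were matched to a window by their current symbol. The NRF1 motif GCGCATGCG was present in 10 of these 137 members (7.3%) and in 527 of all 27025 genes with a window (1.95%). The 10 members were Alas1, Cisd1, Etfdh, Ogdh, Ndufa8, Cox6a1, Uqcrc1, Ndufa11, Shmt2 and Mrpl39. Among the 14 matched respiratory chain and ATP synthase subunits, 4 held the motif. Among the 60 matched members at least 2-fold higher in adult it was found in 2, and in 0 of the 8 matched members at least 2-fold higher at E15. The differences of the 10 genes ran from -0.49 for Mrpl39 to 2.17 for Alas1, so the motif occurred in members on both sides of 0. The ERR motif TNAAGGTCA was found in 3 members (2.19%, against 1.43% of all genes) and the ETS motif ACCGGAAG in 5 (3.65%, against 2.6%). Of the members at least 2-fold higher in adult, the ERR motif was in 1 and the ETS motif in 0. All motifs were searched as exact letters on both strands, and their letters do not overlap one another. A match describes the letters in the window and is not evidence of binding.

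The sequences below are shown as examples of members with a motif on both sides of 0. They begin with the iron-sulphur protein gene Cisd1 (difference 1.34), the electron-transfer flavoprotein dehydrogenase gene Etfdh (0.74), the complex IV subunit gene Cox6a1 (0.37) and the serine hydroxymethyltransferase gene Shmt2 (-0.30), each with the NRF1 motif in capitals, where the matches on both strands overlap and together span 10 bases. The Shmt2 sequence also holds the ETS motif, which is left in lower case. The last is Acsl6 (3.35), the member with the largest difference among those with the ERR motif, which is in capitals as its reverse complement. Each is the 250 bases before the annotated start, 5′ to 3′ on the strand of the gene.
Cisd1, chr10:71344850-71345099, minus strand: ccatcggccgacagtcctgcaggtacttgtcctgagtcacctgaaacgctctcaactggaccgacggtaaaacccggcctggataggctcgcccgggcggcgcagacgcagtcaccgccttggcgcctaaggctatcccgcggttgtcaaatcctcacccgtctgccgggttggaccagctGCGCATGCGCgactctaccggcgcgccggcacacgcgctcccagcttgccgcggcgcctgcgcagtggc
Etfdh, chr3:79628768-79629017, minus strand: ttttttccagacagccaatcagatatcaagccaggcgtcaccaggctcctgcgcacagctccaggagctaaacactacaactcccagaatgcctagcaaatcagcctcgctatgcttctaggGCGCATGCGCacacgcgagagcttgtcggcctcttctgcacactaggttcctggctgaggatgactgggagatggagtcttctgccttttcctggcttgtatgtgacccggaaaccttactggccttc
Cox6a1, chr5:115348959-115349208, minus strand: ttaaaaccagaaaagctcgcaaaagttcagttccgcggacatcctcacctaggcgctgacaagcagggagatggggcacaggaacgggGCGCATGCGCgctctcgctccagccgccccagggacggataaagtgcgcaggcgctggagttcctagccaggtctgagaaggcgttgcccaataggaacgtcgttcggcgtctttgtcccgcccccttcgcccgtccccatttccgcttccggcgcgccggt
Shmt2, chr10:127522445-127522694, minus strand: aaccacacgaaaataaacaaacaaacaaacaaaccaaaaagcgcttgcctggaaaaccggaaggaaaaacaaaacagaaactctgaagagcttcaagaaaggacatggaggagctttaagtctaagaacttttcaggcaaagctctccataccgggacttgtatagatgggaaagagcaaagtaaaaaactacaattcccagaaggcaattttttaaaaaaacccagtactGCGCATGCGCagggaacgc
Acsl6, chr11:54303574-54303823, plus strand: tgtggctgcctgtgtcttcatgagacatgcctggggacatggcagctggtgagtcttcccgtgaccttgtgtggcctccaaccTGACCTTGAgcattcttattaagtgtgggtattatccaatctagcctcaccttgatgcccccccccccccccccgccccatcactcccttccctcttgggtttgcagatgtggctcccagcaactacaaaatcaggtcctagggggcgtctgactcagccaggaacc

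The windows of Alas1, Uqcrc1 and Ndufa11 take in transcribed bases of their own gene or of a neighbouring gene, so the motif is shown with 10 bases on each side only.
Alas1, chr9:106247906-106247935, minus strand: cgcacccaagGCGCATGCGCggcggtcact
Uqcrc1, chr9:108936668-108936697, plus strand: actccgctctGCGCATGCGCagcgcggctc
Ndufa11, chr17:56717692-56717721, plus strand: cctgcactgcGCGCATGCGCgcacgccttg
The motif lies 60 bases before the start in Ndufa11, and 69, 128, 162 and 19 bases before it in Cisd1, Etfdh, Cox6a1 and Shmt2. In Uqcrc1 it lies within the first 50 transcribed bases. In Alas1 it lies 195 bases before the later of the pair of annotated starts and downstream of the earlier one. Distances are counted from the first base of the motif.

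Of the 171 members, 68 (39.8%) were at least 2-fold higher in adult, where 22.9% of all 3956 clusters were. At least 2-fold higher at E15 were 12 members (7.02%), where 24.4% of all clusters were. After re-centring each age on the median of all clusters the latter count of members was 6. The other 91 members were under 2-fold. Counted by sign alone, 127 members (74.3%) had the higher value in adult, against 45.9% of all clusters. The median difference of the members was 0.70, a fold of 1.62, and that of all clusters was -0.16. The quartiles of the members were -0.03 and 1.16, and the range ran from -3.36 to 4.85.

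The direction was described in each table separately, since each was selected in another way. Of the 78 members in the gene-level table, 67 (85.9%) were higher in adult, where 48.8% of its 1805 clusters were, and 11 were higher at E15, where 51.2% were. Of the 132 members in the splicing index table, 32 (24.2%) were at least 2-fold higher in adult, beside 17.6% of its 3369 clusters, and 9 were at least 2-fold higher at E15, beside 20.5%. By sign alone 91 of these 132 (68.9%) were higher in adult, beside 44.6%. Among the 93 members in the splicing index table alone, 60 (64.5%) had the higher value in adult, where 43.5% of the 2151 such clusters did. Their median difference was 0.26. Of these 93, the short-branched acyl-CoA dehydrogenase gene Acadsb was 2.14-fold higher in adult and a cluster shared by Ugt1a genes 2.00-fold higher at E15, and none of the other 91 reached 2-fold. The cumulative plot of differences shows the members to the right of all clusters throughout the range between the lines that mark 2-fold.

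**Figure D1:**
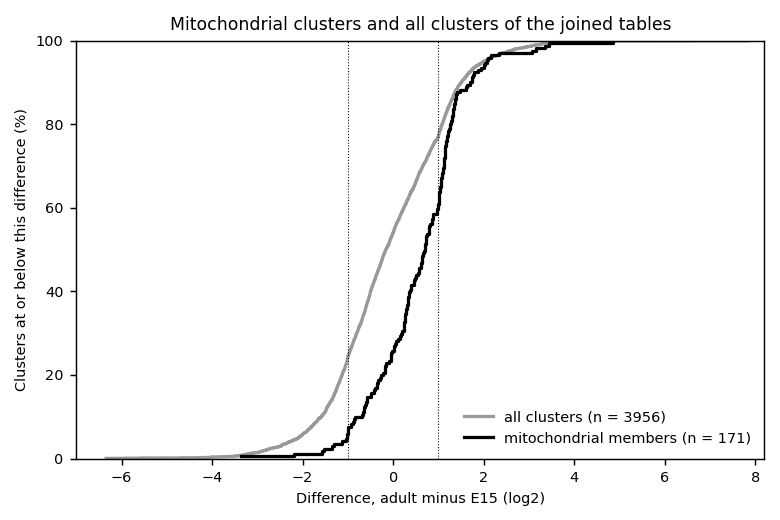
Share of clusters (%) at or below each difference, adult minus E15 on the log2 scale, for the 171 mitochondrial members (black) and all 3956 clusters (grey); dotted lines mark 2-fold. The members' median of 0.70 lies above the median of -0.16 of all clusters.

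Clusters annotated to other compartments, members excluded, differed in the same tables in both directions. Of 37 clusters annotated to the lysosome, 20 (54.1%) were at least 2-fold higher in adult and 1 at E15, with a median difference of 1.07. Of 17 annotated to the peroxisome, 6 were at least 2-fold higher in adult and 0 at E15, with a median of 0.44. Of 877 annotated to the nucleus, 101 (11.5%) were at least 2-fold higher in adult and 267 (30.4%) at E15, with a median of -0.53. Lysosomal clusters thus also lay mostly toward the adult, and nuclear clusters toward E15. The differences between these groups and the members were not tested. Among the 35 mitochondrial clusters that the rule left out, 9 were at least 2-fold higher in adult and 4 at E15, with a median of 0.49. They include 13 mitochondrial carriers of the Slc25 family, with a median of 0.32 and 3 at least 2-fold higher in adult. Alas2, the erythroid form of the first enzyme of heme synthesis, was left out with a difference of -2.25.

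Most subunits of the respiratory chain and ATP synthase that were in the tables stayed under 2-fold. Of 92 RefSeq coding genes that fit the subunit lists, 17 were in the tables and all 17 were members. At least 2-fold higher in adult were 2 of them, Cox8b and Uqcr10, and 0 were at least 2-fold higher at E15. The other 15 were under 2-fold. The median difference of the 17 was 0.29, with the higher value in adult for 13 and at E15 for 4. After re-centring each age on the median of all clusters, Ndufb5 and Atp5b of these 4 turned from -0.05 to 0.10. Because clusters under 2-fold entered only through the splicing index, the 75 subunit genes outside the tables have no value here.

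Complex I, which takes electrons from NADH, was represented by 7 subunit clusters, and each was under 2-fold. Ndufa8 had values of 0.22 in adult and -0.41 at E15, a difference of 0.63. The differences of Ndufa11, Ndufv2 and Ndufb8 were 0.29, 0.24 and 0.24, and that of a cluster shared by Ndufa10 and olfactory receptor genes was 0.19. Ndufb5 was at -0.05. Ndufs4 was lower in adult, with -0.24 in adult and 0.33 at E15. The spread of these 7 differences, from -0.57 to 0.63, thus lay on both sides of 0.

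Complex II, or succinate dehydrogenase, links the citrate cycle to the chain. Its flavoprotein gene Sdha had a difference of 0.64 and its iron-sulphur subunit gene Sdhb one of 0.36. Complex III passes electrons from ubiquinol to cytochrome c. Its small subunit gene Uqcr10, listed in the files as 1110020P15Rik, had values of 0.45 in adult and -0.69 at E15, a fold of 2.20. Uqcrq had a difference of 0.62, and the core protein genes Uqcrc1 and Uqcrc2 had 0.35 and 0.25.

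Complex IV, cytochrome c oxidase, was represented by a ubiquitous and a tissue-restricted subunit gene. Cox8b, which encodes the isoform of subunit VIII known from heart, skeletal muscle and brown fat, had the largest difference of all members, with 2.42 in adult and -2.43 at E15, a difference of 4.85 and a fold of 28.8. It was in the gene-level table alone, with no splicing index. Cox6a1, the widely expressed isoform of subunit VIa, had values of 0.43 and 0.06, a difference of 0.37. Of 23 striated muscle markers, 3 symbols were in the tables in 2 clusters, with differences of 0.43 (Myh7 shared with Myh6) and 0.11 (Actn3). Of 10 brown fat markers, Cox8b itself and Ppargc1a were in the tables. Ucp1, the defining marker of brown fat, has no value here. The part of muscle or fat RNA in the Cox8b difference was not tested.

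ATP synthase was represented by the catalytic beta subunit gene Atp5b, at -0.05, and by Atpif1, which encodes the inhibitor of its reverse reaction and had values of -0.45 in adult and 0.16 at E15, a difference of -0.62. Both members on the list of assembly factors were also under 2-fold. The copper chaperone gene Cox11 had a difference of 0.30 and Coa8, listed as 2810002N01Rik, one of -0.64. Of 5 further assembly factor clusters without the mitochondrial annotation, Ndufaf4, Ttc19 and Foxred1 had differences of 0.98, 0.95 and 0.53, a cluster shared by Tymp and Sco2 had -0.04, and a cluster shared by Higd1a had 1.06, the single one of the 5 past 2-fold.

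**Figure D2:**
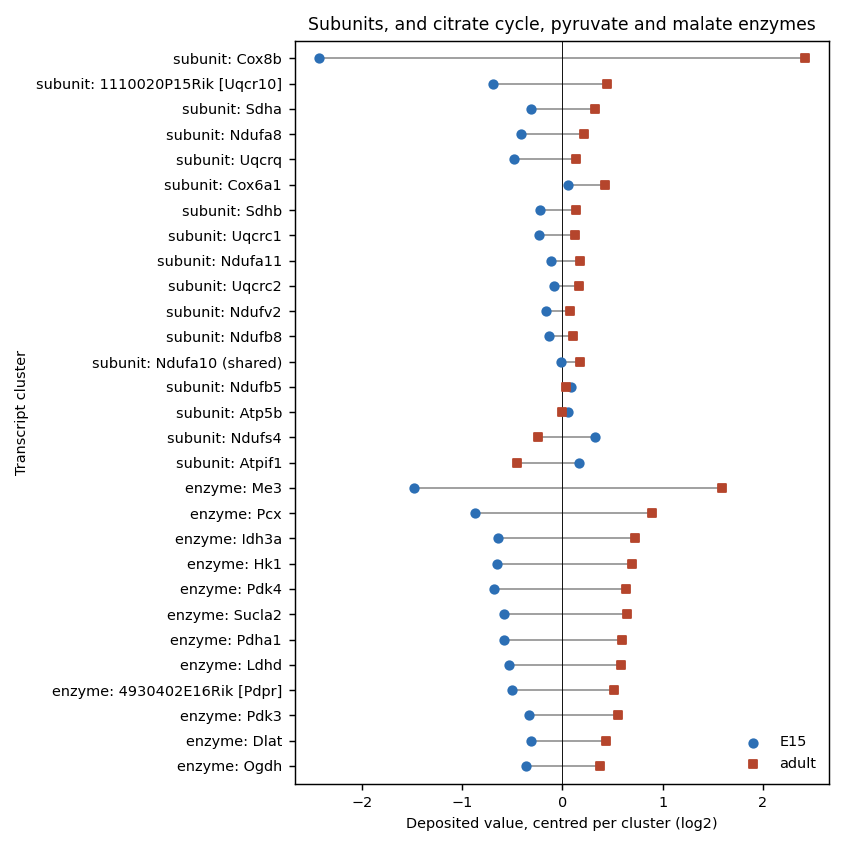
Deposited log2 values, centred per cluster, at E15 (blue circles) and in adult (red squares) for the 17 respiratory chain and ATP synthase subunits and the 12 enzymes of the citrate cycle and of pyruvate and malate metabolism. Most subunit pairs lie close together, Cox8b stands apart, and all 12 enzyme pairs have the adult value to the right.

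All 12 members on the citrate cycle and the pyruvate and malate lists had the higher value in adult, 9 of them at least 2-fold, with a median difference of 1.20 and a range from 0.73 to 3.07. These 12 are all of the clusters in the tables that fit these lists. The median of the 17 subunits was 0.29, but both sets entered the tables mostly by different routes. The 9 enzymes were in the gene-level table, which required 2-fold, while 15 of the subunits entered through the splicing index table alone. The gap between the medians cannot be told apart from the route of entry.

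In the citrate cycle, Idh3a, a subunit of NAD-dependent isocitrate dehydrogenase, had values of 0.73 in adult and -0.64 at E15, a fold of 2.58. Sucla2, a subunit of ATP-forming succinyl-CoA synthetase, had values of 0.64 and -0.58, a fold of 2.34. Ogdh, a component of the oxoglutarate dehydrogenase complex, had a difference of 0.73 and was under 2-fold.

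Me3, the mitochondrial NADP-dependent malic enzyme, had the largest difference of these 12, with 1.59 in adult and -1.48 at E15, a fold of 8.38. Its mitochondrial annotation rests on electronic inference alone. Pcx, pyruvate carboxylase, which makes oxaloacetate from pyruvate, had values of 0.89 and -0.87, a fold of 3.39. The pyruvate dehydrogenase complex was represented by its catalytic subunit gene Pdha1, with a fold of 2.26, and by Dlat, with a difference of 0.75. Its inhibitory kinases were also higher in adult, with a difference of 1.32 for Pdk4 and 0.88 for Pdk3, and so was Pdpr (listed as 4930402E16Rik), a regulatory subunit of the opposing phosphatase, at 1.02. Genes for the catalytic subunit, its kinases and a phosphatase subunit thus had the same sign. Hk1, the hexokinase that binds the outer membrane, had a difference of 1.34 and Ldhd, the D-lactate dehydrogenase, one of 1.12.

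Among the ketone body enzymes, Oxct1, which starts the use of ketone bodies, had values of 0.50 and -0.61, a fold of 2.15 higher in adult.

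Fatty acid activation and oxidation was the longest metabolic list. Of its 17 members, 10 were at least 2-fold higher in adult and 1 at E15, with a median of 1.10. The list also takes in enzymes known from amino acid breakdown, so these counts are not of fatty acid oxidation alone. Among them, Mccc1, Mmut (listed as Mut), Ivd, Acadsb and Auh were at least 2-fold higher in adult. Hibch and Gcdh were under 2-fold at 0.73 and 0.66. Acsl6, a long-chain acyl-CoA synthetase, had values of 1.74 in adult and -1.61 at E15, a fold of 10.2. Acss1, which activates acetate in the matrix, had a fold of 5.09. A cluster shared by Cpt1b, the carnitine palmitoyltransferase known from muscle, and a Chkb-Cpt1b readthrough had a difference of 1.95, and Mccc1 of leucine breakdown had 1.74. A cluster shared by the thioesterase genes Acot1 and Acot2 was the exception at -1.34. Of 6 further clusters on the list without the mitochondrial annotation, 5 were at least 2-fold higher in adult, among them Acot11 at 2.32 and Acacb, the acetyl-CoA carboxylase that makes the inhibitor of carnitine palmitoyltransferase, at 2.17.

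Electron carriers outside the numbered complexes included 8 members, 4 of them at least 2-fold higher in adult and 0 at E15, with a median of 1.00. Coq10b, a ubiquinone-binding protein, had a difference of 1.29. The ferredoxin gene Fdx1 had 1.21, the sulphide oxidising enzyme gene Sqor 1.12, and Gpd2, which passes electrons from glycerol phosphate to ubiquinone, 1.01. Etfdh, which passes electrons from fatty acid oxidation to ubiquinone, was under 2-fold at 0.74.

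The list of amino acid, choline and one-carbon enzymes divided in direction, with 6 of 12 members at least 2-fold higher in adult and 3 at E15. Its median was 0.36. The amino acid enzymes placed on the fatty acid list are not counted in it. Chdh, choline dehydrogenase, which makes betaine aldehyde, had values of 1.83 in adult and -1.61 at E15, a fold of 10.8. Dmgdh, which acts later on the same route, had a difference of 1.32. Sardh, which follows Dmgdh, had values of -0.64 and 0.38, a difference of -1.02. After re-centring each age on the median of all clusters Sardh was at -0.87, under 2-fold.

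The GABA transaminase gene Abat had values of 0.98 in adult and -1.04 at E15. Prodh, which starts proline breakdown, had a difference of 1.74, and Pycr1, which makes proline, was 2.00-fold higher at E15. Gatm, which makes the creatine precursor, had values of -0.78 and 0.73, a fold of 2.86 higher at E15. The mitochondrial creatine kinase gene Ckmt1 had the opposite sign, with values of 0.96 and -1.05.

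In heme synthesis, Alas1, the first enzyme in cells other than erythroid cells, had values of 1.13 in adult and -1.04 at E15, a fold of 4.50. The later enzyme gene Uros was at 0.06, and Alad, which is not a member, was at -0.41. Hebp1, a heme-binding protein gene, was at -1.01. Of 9 erythroid marker clusters, 0 were at least 2-fold higher in adult and 6 at E15, from -5.55 (Hbb-y) to -0.48. The part of blood cell RNA in the differences of the heme genes was not tested.

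Gene expression and import machinery of the organelle showed no common direction. Of 9 mitochondrial ribosomal protein genes, 2 were at least 2-fold higher in adult, Mrpl48 at 1.18 and Mrps25 at 1.15, and the median was 0.27 with a lowest value of -0.86 for Mrps27. The 5 members on the protein import list were under 2-fold, with a median of -0.19 and a range from -0.42 to 0.47. The highest of these, Timmdc1, fits the list by its symbol but is known as an assembly factor of complex I. The protease genes Spg7, Parl and Afg3l2 had differences of 0.87, 0.39 and 0.24. Mto1, which acts in tRNA modification, and Iars2, an isoleucyl-tRNA synthetase gene, had 0.39 and 0.33. Of 3 members on the nucleotide list, the kinase gene Nme4 was 2.07-fold higher at E15 and the thymidine kinase gene Tk2 was at 0.58.

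No member was on the list for maintenance and transcription of mitochondrial DNA, and 5 clusters of that list were in the tables without the annotation. Ppargc1a, the coactivator known for promoting mitochondrial gene expression, had values of 0.83 in adult and -1.11 at E15, a fold of 3.85. Esrra, which encodes the estrogen-related receptor alpha that it coactivates, had values of 0.74 and -0.73, a fold of 2.78. The methyltransferase gene Trmt2b had a difference of 1.76. Nrf1 was under 2-fold at -0.54, and Dna2 was at -0.74.

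**Figure D3:**
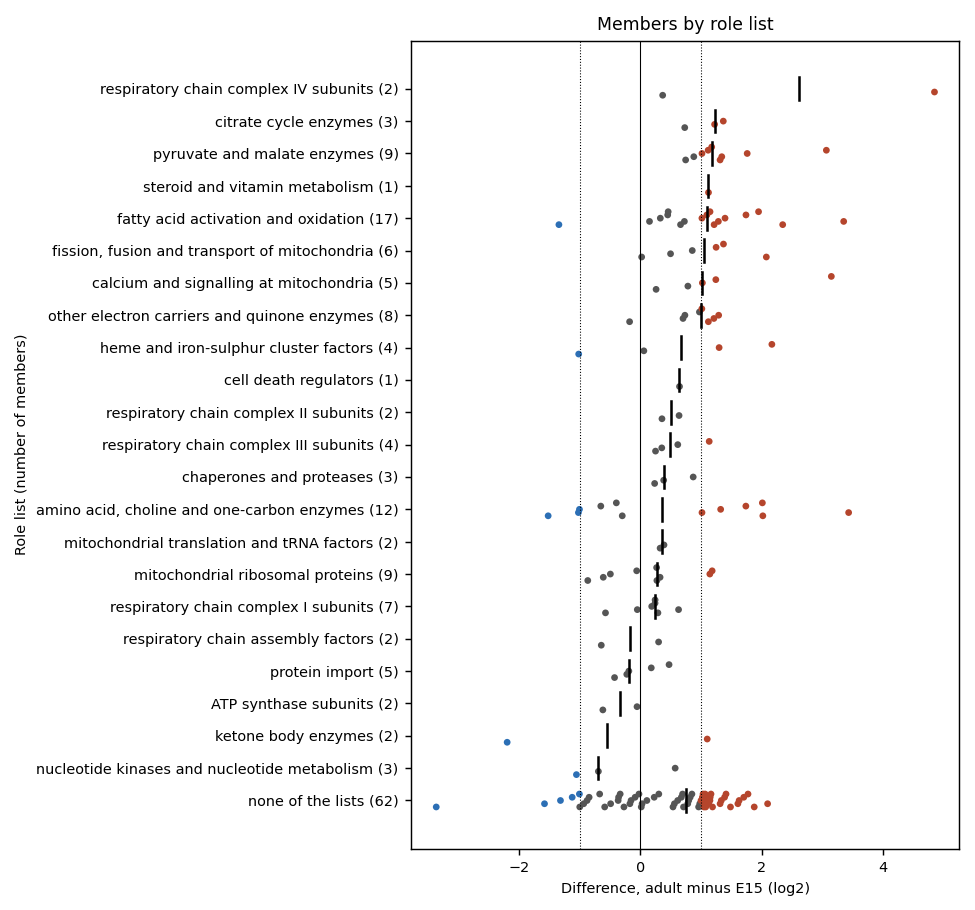
Difference, adult minus E15 (log2), of each member by role list, with the number of members beside each list and a black bar at its median; red points are at least 2-fold higher in adult, blue at E15, and dotted lines mark 2-fold. All members of the citrate cycle and of the pyruvate and malate lists lie right of 0. So do those of several other lists, among them complex III, chaperones and proteases, fission and fusion, and signalling. The fatty acid list has 1 member left of 0, and the complex I, ribosomal and import lists have members on both sides.

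Genes for the shape and movement of mitochondria were represented by 6 members, 3 of them at least 2-fold higher in adult and 0 at E15, with a median of 1.05. Mtfp1 (listed as 1700020C11Rik), which acts in fission, had values of 1.02 in adult and -1.05 at E15, a fold of 4.22. Pink1, the kinase that marks damaged mitochondria for removal, had a difference of 1.37, and Letm1, an inner membrane protein of ion exchange, 1.25. Rhot2, which ties mitochondria to motor proteins, and the fusion gene Mfn2 were under 2-fold at 0.86 and 0.50. Fis1 was at 0.02.

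Bad was the only cell death regulator among the members, with a difference of 0.63. Of 19 clusters of that list without the annotation, 3 were at least 2-fold higher in adult and 8 at E15, with a median of -0.93. The largest difference of the 19 was that of Ifi27 (listed as D12Ertd647e), at 4.66, a fold of 25.3 higher in adult. Apaf1, the core of the apoptosome, had a difference of -1.50 and Bcl2l11, a pro-apoptotic gene of the Bcl2 family, one of -1.48. The list was filled by symbol and also takes in tumour necrosis factor receptor genes that are not mitochondrial.

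Signalling proteins annotated to mitochondria included Nos1, the neuronal nitric oxide synthase, with values of 1.65 in adult and -1.50 at E15, a fold of 8.87. Of 10 neuronal markers, 5 were in the tables, 4 at least 2-fold higher in adult (Camk2a at 2.66, Syt1 at 1.97, Slc17a7 at 1.73 and Snap25 at 1.52) and Nefm at -1.71. Syt1 and Nefm were in the gene-level table. Camk2a, Slc17a7 and Snap25 were past 2-fold but absent from it, so they had not passed the authors' other filters for that table. Acsl6, Ckmt1 and Abat are also known from neurons, and the part of neuronal RNA in these differences was not tested. Tspo, the cholesterol-binding protein of the outer membrane, had a difference of 1.12.

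The role lists left 62 members unplaced, 25 of them at least 2-fold higher in adult and 5 at E15, with a median of 0.75. They include Nat8f1 (listed as Cml1), at 2.10, the alcohol dehydrogenase gene Adh1, at 1.88, and Ucp2, which encodes an inner membrane carrier, at 1.78. Some are known mainly from other compartments. Peroxisomal lipid oxidation included Ehhadh at 1.71 and Hsdl2 at 1.15, and lysosomal proteins were represented by 4, from 1.61 for Gm2a to -0.84 for Grn. These groups were formed after the values were seen.

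The 12 members at least 2-fold higher at E15 did not form a metabolic group of their own. Pclaf, listed as 2810417H13Rik, encodes a factor bound to the replication clamp PCNA and had values of -1.65 in adult and 1.71 at E15, a fold of 10.3. Its mitochondrial annotation is electronic only. The 14 clusters of dividing cell markers were all at least 2-fold higher at E15, from -4.65 (Top2a) to -2.34 (Ccnb1), and the part of dividing cells in the Pclaf difference was not tested. Others were Dpysl2, known from axon growth, with values of -0.92 and 0.65, Gatm, the Acot1 and Acot2 cluster, and Cyba, a subunit of the phagocyte NADPH oxidase, with a fold of 2.49. The omega-amidase gene Nit2, Nme4, Sardh, Hebp1, the Ugt1a cluster and Pycr1 were between 2.18-fold and 2.00-fold higher at E15, and these 6 were under 2-fold after the re-centring.

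**Figure D4:**
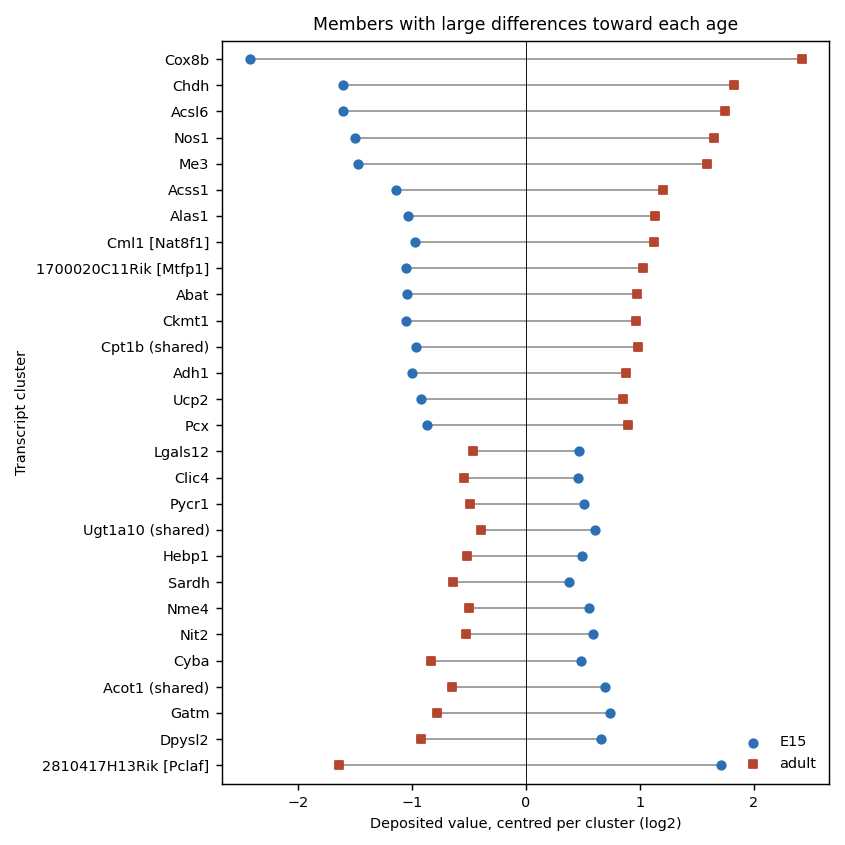
Deposited log2 values, centred per cluster, at E15 (blue circles) and in adult (red squares) for 15 members with large differences toward the adult and 13 toward E15. Cox8b has the widest pair toward the adult and 2810417H13Rik (Pclaf) toward E15, and Clic4 and Lgals12 are the pairs toward E15 that are under 2-fold.

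At the threshold, Cds2, Gpd2 and Auh lay just inside 2-fold in adult with differences of 1.00, 1.01 and 1.02, and Vwa8, Coq8a and Dbi just outside with 0.98, 0.98 and 0.96. Toward E15, Pycr1, the Ugt1a cluster and Hebp1 lay just inside, 2.00-fold, 2.00-fold and 2.02-fold higher at E15. Clic4 lay just outside, at 2.00-fold after rounding, before Lgals12 at -0.93.

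The tissue label was checked against 10 markers of the choroid plexus epithelium, 4 of which were in the tables. Kl, the klotho gene, was 27.4-fold higher in adult, Enpp2 and Igf2 had differences of 0.88 and 0.29, and the potassium channel subunit gene Kcne2 had -1.13. Values centred within each cluster give no level, so the presence of the epithelium could not be read from them. Of 4 clusters in the tables that carry markers of ciliated cells, 3 were at least 2-fold higher at E15.

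The splicing index, a deposited score for exons that depart from the change of the whole gene, was given for 132 members. The rule did not read it, but the table that holds it lists only clusters past a minimum size of the index, and 93 of the 132 entered through that table alone. Its sign is that of adult against E15 and its scale was not stated. The median size of the index was 0.83 among members and 0.90 among all 3369 clusters of the table, and a size of at least 1 was reached by 32 members (24.2%) against 40.1% of all. The number of probe sets behind the index had a median of 13 in both.

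The index ran against the difference of the gene in 75 of the 132 members (56.8%), where 62.5% of all clusters of the table did. Among the 41 of these members that differed at least 2-fold it did so in 30 (73.2%), against 77.5% of all such clusters. Both shares were close to those of the table, somewhat below them, and the gaps were not tested. The largest indices were those of Acsl6, at -2.82 over 28 probe sets, the Ugt1a cluster, at -2.76 over 7, Nos1, at -2.60 over 26, Ckmt1, at -2.21 over 12, and the Cpt1b cluster, at -1.96 over 21. Of these 5, the Ugt1a cluster had index and difference of the same sign and the other 4 opposite signs. Atp5b had an index of 1.56 over 12 probe sets beside a difference of -0.05 in the gene as a whole. Ugt1a transcripts share their last exons and differ in the first, and this cluster takes in 8 symbols.

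**Figure D5:**
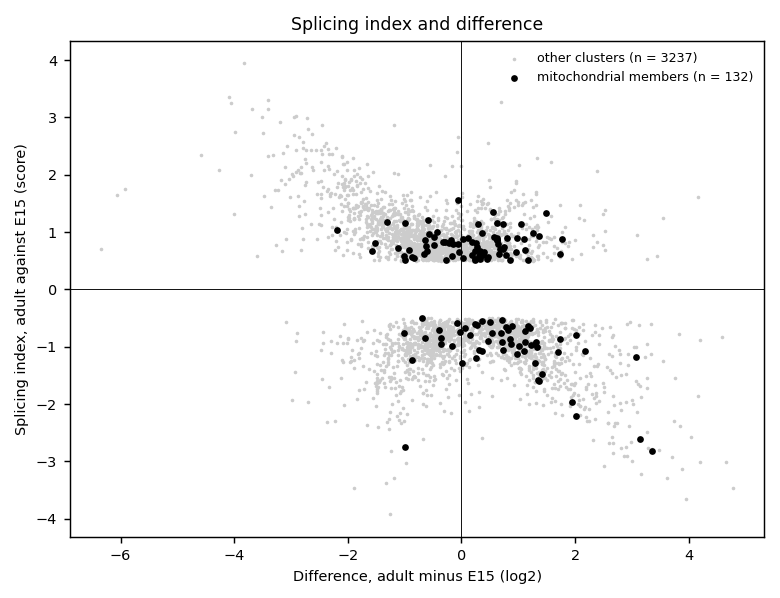
Splicing index (score, adult against E15) against the difference of the whole gene, adult minus E15 (log2), for the 132 members in the splicing index table (black) and its other 3237 clusters (grey). The empty band around 0 is the authors' minimum size of the index. Acsl6 and Nos1 lie at the lower right, with indices of -2.82 and -2.60.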

How the data were processed

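RNA from 3 pools of E15 and 3 pools of adult lateral ventricular choroid plexus was amplified in 2 rounds and hybridised to exon arrays, 1 pool per array. The deposited log2 values were made by the authors in Affymetrix Power Tools with RMA, a background correction and summary of probes over all arrays, set to the median of each chip. They then kept expressed genes that passed an unpaired test, corrected by the Benjamini-Hochberg procedure, and a threshold of 2-fold, and merged the 3 arrays of an age. The splicing index is a score that the authors made from exon-level values and deposited with the number of probe sets behind it. The supplementary description of the study places a filter for detection above background and a corrected splicing test before its minimum size. The genome build is not given in the sources used here. Of the columns used, 0 hold a single array, so the planned model across arrays was not run, the number of arrays limits the precision, and signal over background could not be read from centred values. The authors' own fold change column and a table of clusters common to both lists were not used.

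Both tables were joined by transcript cluster, and the 1218 clusters in both had equal values in each. Current symbols were taken from RefSeq by accession or synonym for 19 of 161 members with 1 symbol. The members and the gene lists were chosen with earlier results of these data known. Symbol starts were used in the lists, and that of complex I was corrected after the data were seen, which changed no member. Named were the 15 members with the largest difference toward each age, every member on the lists of the respiratory chain, ATP synthase, assembly, citrate cycle, pyruvate and malate, ketone body, mitochondrial DNA, fission and fusion and cell death genes, the 5 largest indices, the 3 members on each side of 2-fold, and up to 4 examples of other lists. Further genes, among them those with a promoter motif, were named after their values were seen. Some genes that this rule would name are not reported here. The computation was tested on simulated data. The alternatives were a re-centring of each age, folds of 3 and 4, each table alone, clusters with 1 symbol, annotations that are not electronic, inner membrane terms, nothing left out, and an index of at least 1. Python 3.11.15, numpy 2.4.6, pandas 2.3.3 and matplotlib 3.10.9 were used.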

Additional observations from a re-analysis of the deposited data

How the results depend on the processing

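No paired analysis was possible because the deposited tables hold 1 merged value per age. For the same reason, leaving out each replicate in turn was not run. Re-centring each age on the median of all clusters adds 0.15 to every difference. It gave 75 members at least 2-fold higher in adult and 6 at E15, and turned Ndufb5 to 0.10 and Atp5b to 0.10. Of the other members among the 71 that the naming rule picks, 63 moved by less than 1.5 times and kept their sign, and 6 moved by more with the same sign. Members named in the text outside that rule were not counted there. At folds of 3 and 4, 20 and 11 members were higher in adult and 2 and 2 at E15. Inner membrane, matrix or respiratory chain terms alone gave 14 and 2 of 41 members. With members outside the role lists left out, a choice made after seeing the data, the counts were 43 and 7 of 109. The splicing index table alone gave 32 members higher in adult and a median of 0.38, and the gene-level table alone a median of 1.20. The index opposed the difference in 24 of 32 members with an index size of at least 1 and in 30 of 41 members at least 2-fold different. The counts moved by less than 1.5 times with clusters of 1 symbol (65 and 10), 1 value per symbol (68 and 12), annotations that are not electronic (56 and 11) and nothing left out (77 and 16). The fall with a higher fold, a smaller table or fewer terms follows from fewer members passing or being counted. The number of arrays limits the precision, and no error could be given.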
